A study of Mus musculus with 2 samples.

Results

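The Sfrp4 Ccl11 Frmpd4 fibroblasts are 508 Pdgfra-positive, Ptprc-negative cells from neonatal mouse knee joints, chosen by detected transcripts from the 15174 cells kept of one merged single-cell matrix. A cell was kept with at least 500 genes, at least 1000 unique molecular identifiers (UMIs, each standing for 1 captured transcript) and at most 10% mitochondrial UMIs. Members had at least 1 UMI of Pdgfra, none of Ptprc and at least 1 UMI of at least 3 of the 5 genes Sfrp4, Frmpd4, Pcdh7, Ccl11 and Dclk1. They also had fewer than 3 of Abca8a, Ebf2, Cd248, Tmem100 and Lpl, fewer than 3 of Cxcl5, Csf2, Csf3, Ptgs2 and Saa3, and not both Pi16 and Dpp4. They made up 3.35% of the kept cells (exact Clopper-Pearson 95% interval 3.07 to 3.65, counting error only) and 11.3% (10.4 to 12.2) of the 4502 Pdgfra-positive Ptprc-negative cells. The levels of these 19 genes chose the members and are given as a description only.

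The knee joints were taken from hindlimbs of male and female mice at postnatal day 7, either Col12a1 knockout or wild type, after skin and paws had been removed. Tissue was digested in collagenase II at 4 mg/mL for 6 h and sequenced with 10x Genomics 3′ v3 chemistry. The first experiment had 1 knockout and 1 wild-type library, the second 2 knockout and 2 wild-type libraries, and all were merged by Cell Ranger. The labels do not say which cells came from which genotype, so knockout and wild type were not compared, and the matrix counts as 1 sample with no p-values. Barcodes end in 1 or in 2, and no label ties these endings to a genotype or library. These barcode sets are used as subsets of unknown origin with no genotype attached to them: 229 members ended in 1 and 279 in 2.

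Col12a1, which encodes the fibril-associated collagen XII deleted in the knockout mice, was detected in 293 members. Its level was 343 counts per 1e+06 UMIs (CPM) in members, against 185 CPM in the other Pdgfra-positive cells. It was 95.5 CPM in members of set 1 and 573 CPM in members of set 2, against 67.2 and 303 CPM in the other Pdgfra-positive cells. Set 2 was thus the higher one in both groups of cells. The difference between members and the other cells did not reach the size needed for a call (ratio 1.85).

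Pdgfra, the receptor for PDGF-AA, marks most fibroblasts of connective tissue, and Ptprc encodes the pan-leukocyte antigen CD45. Sfrp4 encodes a secreted frizzled-related protein, one of a family that binds Wnt ligands outside the cell and modulates Wnt signalling, which shapes bone, cartilage and the joint capsule. Ccl11 encodes eotaxin, a chemokine for eosinophils, Pcdh7 a protocadherin, Frmpd4 a scaffold protein with FERM and PDZ domains, and Dclk1 a microtubule-associated kinase of the doublecortin family.

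In the GENCODE M21 annotation of mm10, Sfrp4 lies on chromosome 13 at 19623104 to 19632994, Frmpd4 on chromosome X at 167471309 to 168577231, Pcdh7 on chromosome 5 at 57717967 to 58133230, Ccl11 on chromosome 11 at 82057823 to 82062955 and Dclk1 on chromosome 3 at 55242364 to 55539068. Promoter sequences of the 2 genes detected in nearly every member are shown, since most members pass the rule through this pair plus one more gene. They run from 250 bases before to 50 bases after an annotated RefSeq start (GRCm38.p6), with the TCF/LEF core CTTTGA and the CCAAT box in capitals where a search of both strands found them.
Pcdh7, chr5:57717831-57718130, plus strand: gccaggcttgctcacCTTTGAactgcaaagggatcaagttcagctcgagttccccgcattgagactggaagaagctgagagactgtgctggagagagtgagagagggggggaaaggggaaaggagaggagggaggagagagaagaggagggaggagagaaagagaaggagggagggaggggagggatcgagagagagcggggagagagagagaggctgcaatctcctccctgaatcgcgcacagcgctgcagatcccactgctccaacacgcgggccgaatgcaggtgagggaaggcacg
Dclk1, chr3:55242114-55242413, plus strand: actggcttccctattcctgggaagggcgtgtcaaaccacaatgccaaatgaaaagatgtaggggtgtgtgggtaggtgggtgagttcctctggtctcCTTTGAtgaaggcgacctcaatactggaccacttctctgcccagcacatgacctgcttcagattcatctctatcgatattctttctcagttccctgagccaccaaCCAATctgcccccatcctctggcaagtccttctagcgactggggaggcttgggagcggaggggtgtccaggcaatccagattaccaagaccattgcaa
Each printed window holds 1 match to CTTTGA, starting 235 bases before the start in Pcdh7 and 153 before it in Dclk1, and that of Dclk1 has a CCAAT box starting 48 bases before. A second RefSeq start of Dclk1, with its window at chr3:55461478-55461777 on the plus strand, has no match to either motif. CTTTGA occurs in 16.003% of all 32851 RefSeq promoter windows of this length and CCAAT in 37.4%, and the 2 motifs do not overlap each other here. These are letter matches and not measured binding sites.

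Pcdh7 and Dclk1 were detected in almost all members and the 3 genes of the working name in fewer. Pcdh7 had at least 1 UMI in 98.2% of members and Dclk1 in 97.8%, while Sfrp4 was found in 74.6% and Frmpd4 in 38.6%. Ccl11 was found in 79 members, or 15.6%, so a name built on Ccl11 describes a minority of these cells. In the other Pdgfra-positive cells the shares were 68.1% for Pcdh7, 74.4% for Dclk1, 39.6% for Sfrp4, 10.97% for Frmpd4 and 11.4% for Ccl11. Free RNA was gauged in Ptprc-positive Pdgfra-negative cells, where these shares were 5.61%, 1.90%, 1.34%, 0.642% and 0.196% in the same order. Median depth was 12319 UMIs in members, 16839.5 in the other Pdgfra-positive cells and 7855.5 in the Ptprc-positive cells. With every cell thinned to 2000 UMIs, Sfrp4 was seen in 37.6% of members, 15.3% of the other Pdgfra-positive cells and 0.383% of the Ptprc-positive cells, and Ccl11 in 8.07%, 3.72% and 0.0589%.

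As pooled levels, Sfrp4 stood at 370.2 CPM in members against 164 CPM in the other Pdgfra-positive cells, and Frmpd4 at 117 against 28.5 CPM. Pcdh7 had 1143 CPM in members against 587 CPM, Dclk1 469 against 253 CPM, and Ccl11 74.1 against 40.2 CPM. Sfrp4, Pcdh7 and Dclk1 without the other 2 genes was the commonest combination, with 243 members (122 in set 1 and 121 in set 2). Next came 91 members with Frmpd4, Pcdh7 and Dclk1, and 84 with those 3 and Sfrp4 (26 in set 1 and 58 in set 2). Ccl11 entered the larger combinations with Sfrp4, Pcdh7 and Dclk1 in 32 members and with Pcdh7 and Dclk1 alone in 31. In all, 13 combinations were present, and 384 members had exactly 3 of the 5 genes, 122 had 4 and 2 had all 5.

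**Figure D1:**
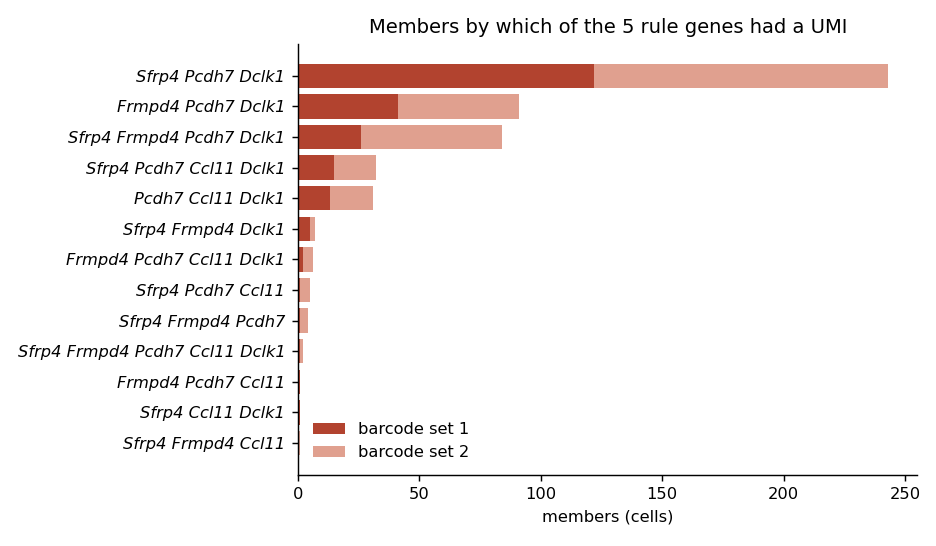
Number of members (cells, linear axis) with each combination of the 5 genes detected, split by barcode set. The combination Sfrp4 Pcdh7 Dclk1 leads with 243 of 508 members, and the largest combination with Ccl11 holds 32.

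The exclusions shaped the group as much as the 5 genes did. Of the 2002 Pdgfra-positive Ptprc-negative cells with at least 3 of the 5 genes, 508 (25.4%) were members and 1494 were left out. Among those left out, 1161 had at least 3 of the Abca8a genes, 809 had both Pi16 and Dpp4, and 238 had at least 3 of the Cxcl5 genes, with overlaps. The cells left out had 319 CPM of Sfrp4, 891 CPM of Pcdh7 and 82.5 CPM of Ccl11. Their Sfrp4 and Pcdh7 levels were thus below those of members and their Ccl11 level above it. Members themselves carried genes of the excluded lists: 273 had 2 of the Abca8a genes and 121 had 2 of the Cxcl5 genes.

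Cells at the boundary differed in the rule's genes by construction. The 384 members with exactly 3 of the 5 genes had 319 CPM of Sfrp4, 1002 CPM of Pcdh7 and 35.0 CPM of Ccl11. The 535 cells with exactly 2 that met every other criterion had 65.1 CPM of Sfrp4, 434 CPM of Pcdh7 and 3.97 CPM of Ccl11. Twist2, which encodes a basic helix-loop-helix factor of mesenchymal cells and took no part in the rule, stood at 6.57, 16.9, 60.7, 132 and 177 CPM in cells with 0, 1, 2, 3 and 4 or 5 of the genes. Igfbp3, which encodes an insulin-like growth factor binding protein, stood at 21.6, 78.5, 200.1, 380.3 and 458 CPM in the same order. Both levels were higher at each further gene detected. The median depth of these cells lay between 12181.5 and 15450.5 UMIs with no such order. The cause of the series was not tested. The pair was chosen for this series after its values had been seen.

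With the 19 rule genes left out, members still had other members as neighbours more often than their number alone would give, but mixed widely with other fibroblasts. Among 4491 Pdgfra-positive Ptprc-negative cells of at least 2000 UMIs, thinned to that depth and reduced to 30 principal components, 28.0% of the members' 15 nearest neighbours were members, who made up 11.3% of the cells. Cells of no named rule made up 31.7% of the members' neighbours and 40.6% of the cells. Cells left out despite 3 or more of the 5 genes made up 28.5% and 33.3%, and the Abca8a Ebf2 Cd248 fibroblasts 7.69% and 10.0%. The share of own-kind neighbours was 56.3% for the cells left out (33.3% of cells), 22.1% for the Abca8a Ebf2 Cd248 fibroblasts (10.0% of cells) and 11.2% for the Pi16 Dpp4 fibroblasts (2.23% of cells). For 56 members most neighbours were members, and 43 members had no member among their neighbours.

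**Figure D2:**
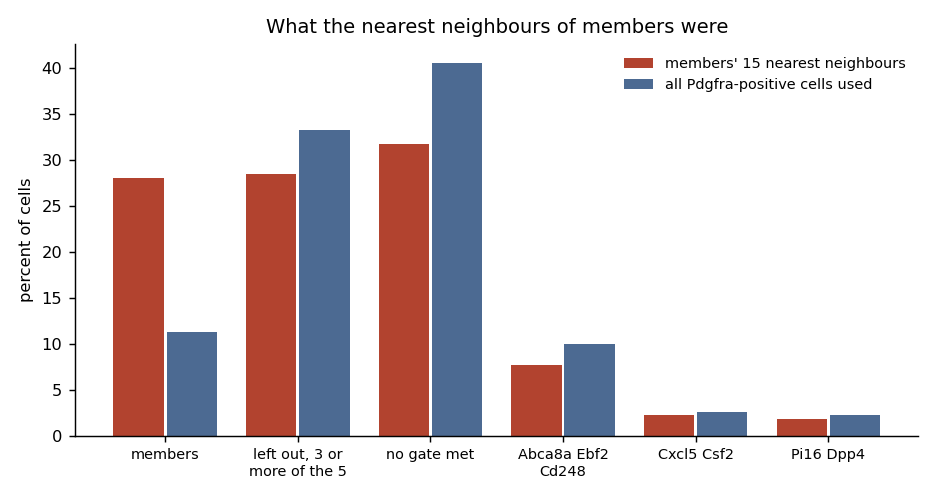
Share of the members' 15 nearest neighbours in each class of cell beside that class's share of all 4491 cells searched (percent), computed without the 19 rule genes. Members account for 28.0% of neighbours and 11.3% of cells, and each other class for a smaller share of neighbours than of cells.

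Against the other 3994 Pdgfra-positive cells, members had higher levels of single genes such as Twist2, Igfbp3, C2 and Wnt16, and lower levels of synovial lining and cartilage markers and of some genes of progenitor-like fibroblasts. A gene was called where pooled CPM differed 2-fold or more in either direction, with at least 100 UMIs on both sides together, an exact conditional 95% interval without 1 and the same side of 1 in both barcode sets. Intervals cover counting error only, since cells are not replicates. Of 13848 genes tested, 146 (1.05%) were called higher and 961 (6.94%) lower. The median log2 ratio over all tested genes was -0.15. With every ratio divided by that median the split was 239 higher and 707 lower.

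Of the genes called higher, C2, a complement serine protease, had 39.7 CPM in members (37.5 in set 1, 41.7 in set 2) against 15.3 CPM in the other cells, in 148 members. C2 was even across the sets. Twist2 had 143 CPM in members (133 in set 1, 152 in set 2) against 66.6 CPM (ratio 2.15, interval 2.02 to 2.28), in 261 members. Igfbp3 had 399 CPM (413 in set 1, 386 in set 2) against 183 CPM (ratio 2.18, 2.11 to 2.26), in 335 members. Twist2 and Igfbp3 were the most widely detected of the genes named here as higher. Crabp2, which encodes a cellular retinoic acid binding protein, had 81.3 CPM in members against 33.7 CPM (ratio 2.41), in 128 members. Gfra1, the co-receptor for the neurotrophic factor GDNF, had 48.7 CPM in members against 22.7 CPM (ratio 2.15), in 118 members, and Slit2, a secreted guidance protein, had 51.7 against 19.5 CPM (ratio 2.65), in 59. These 3 were each detected in fewer members than Twist2 or Igfbp3. With the rule read after thinning every cell to 2000 UMIs, the ratios were 1.42 for Twist2, 1.57 for Igfbp3, 1.93 for C2, 0.784 for Crabp2, 0.383 for Slit2 and 2.48 for Gfra1. Only Gfra1 of these 6 was still past 2, and Crabp2 and Slit2 turned to the other side of 1. Without its highest cell on each side Gfra1 fell short of a call, with a ratio of 1.84, while the other 5 stayed above 2.

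Of matrix genes, Col8a1, which encodes a short-chain collagen, had 196 CPM in members (259.7 in set 1, 136 in set 2) against 74.8 CPM (ratio 2.62). Ltbp2, a latent TGF-beta binding protein of microfibrils, had 41.7 against 20.6 CPM. Tnn, which encodes tenascin W, had 109 against 49.7 CPM, and Adamts3, a procollagen N-propeptidase, 23.4 against 10.97 CPM. All 4 came from a minority of members, from 53 for Tnn to 113 for Col8a1. Without each gene's highest cell on each side the ratios were 2.48 for Col8a1, 1.96 for Ltbp2, 1.995 for Tnn and 1.95 for Adamts3, so only Col8a1 of the 4 stayed past 2. Under the thinned rule the ratios were 0.486 for Col8a1, 0.681 for Ltbp2, 0.00993 for Tnn and 1.35 for Adamts3, none of them past 2. Most matrix genes were not called: of 11 fibrillar collagen genes none was higher and 2 lower, of 9 fibril-associated collagens none was higher and 4 lower, and of 13 small leucine-rich proteoglycans none was higher and 1 lower. Dcn, the small proteoglycan decorin, did not differ in level at this size, with 4017 CPM in members against 4000.15 CPM, nor did Sparc with 11024 against 10669.6 CPM or Col1a1, the alpha 1 chain of collagen I, with 16642 against 13679 CPM.

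The largest ratios belonged to rarer transcripts. Wnt16, which encodes a Wnt ligand known from synovial joint development, had 25.1 CPM in members (23.0 in set 1, 27.1 in set 2) against 5.65 CPM (ratio 4.44, 3.78 to 5.20), and was found in 52 members. Ostn, which encodes the secreted peptide osteocrin, had 37.1 against 9.09 CPM in 35 members, and Grem1, a secreted antagonist of bone morphogenetic proteins, 26.5 against 7.30 CPM in 50. Without each gene's highest cell on each side the ratios were 4.42 for Wnt16, 3.71 for Ostn and 3.30 for Grem1, so no single cell carried these 3. Under the thinned rule they were 3.08 for Wnt16, 0.127 for Ostn and 0.732 for Grem1. Gpha2, a glycoprotein hormone subunit gene, had the top ratio of 7.77, with 23.2 against 2.98 CPM, in 15 members and with 43.5% of its UMIs in 1 of them. Serpina3g had 6.76 against 1.22 CPM in 12 members, and Gm10635 had 15.01 against 3.20 CPM in 31. Under the thinned rule these 3 turned to the other side of 1, with ratios of 0.119 for Gpha2, 0.242 for Serpina3g and 0.450 for Gm10635.

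Several of the highest ratios rested on 1 cell each. That cell held 87.8% of the members' UMIs of Gm45184, 82.6% of Mstn (myostatin), 67.2% of Mipep, 64.0% of Far2, 53.5% of Grm7 and 51.6% of Apln. Without it, and without the highest cell of the other side, the ratios were 0.884 for Gm45184, 1.09 for Mstn, 1.85 for Mipep, 1.32 for Far2, 1.75 for Grm7 and 1.99 for Apln, each short of a call. Over all tested genes, leaving out the highest cell of each side gave 71 genes called higher and 1385 called lower, of which 70 and 875 were among the calls given above. Vwc2, Luzp2 and Fam181b complete the 15 highest ratios, each in 13 or fewer members.

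**Figure D3:**
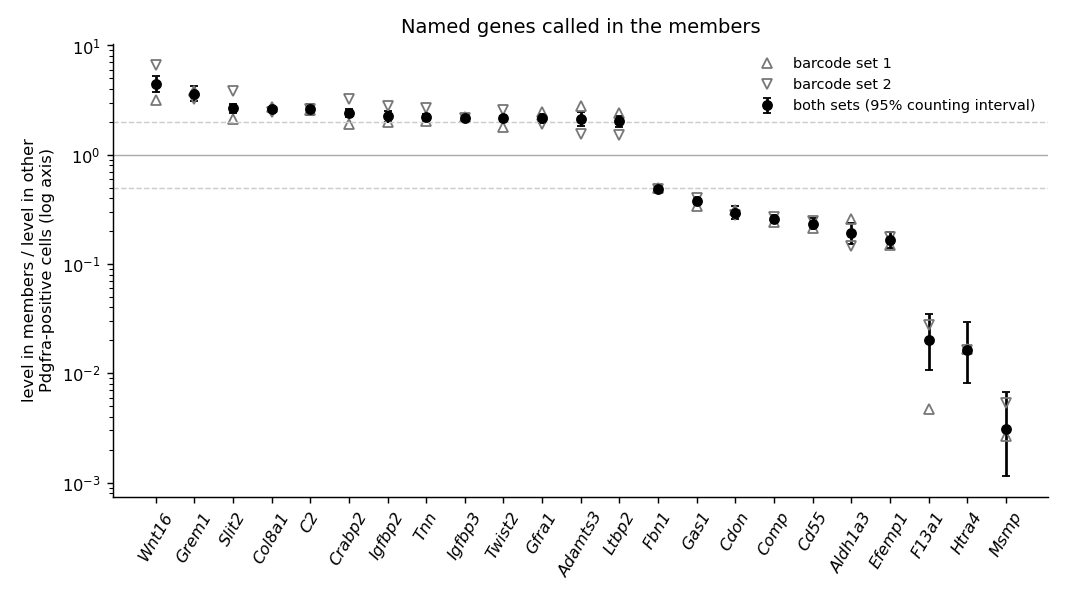
Ratio of pooled CPM, members over other Pdgfra-positive cells (log axis), for named genes called in either direction, with exact 95% counting intervals as bars and open triangles for the 2 barcode sets (up 1, down 2). Dashed lines mark ratios of 2 and 0.5, and the points run from Wnt16 at 4.44 to Msmp at 0.643 CPM against 207 CPM. The ratio of Msmp was 2.17 with at least 2 of the 5 genes asked of members.

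Markers of the synovial lining were among the genes called lower. Htra4, a secreted serine protease, had 1.18 CPM in members against 71.6 CPM in the other cells, and Prg4, which encodes lubricin, 162 against 1123 CPM. All 6 synovial lining markers were tested, 5 were called lower and the median log2 ratio was -2.79. Outside that list, Msmp had 0.643 against 207 CPM, and F13a1, the coagulation factor XIII A chain, 1.39 against 68.7 CPM. With at least 2 of the 5 genes asked of members the ratio of Msmp was 2.17, so its call rested on that choice. Barx1, a homeobox gene, had 0.536 CPM in members against 15.5 CPM. No UMI of Calb2 or Cxcl13 was found in members, where 3 UMIs would be 0.322 CPM, against 10.8 and 3.49 CPM. Tmem196, U90926, Clec3a, Mup5, Ncmap and Hao1 had 1 or 2 UMIs each over all members.

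Some genes of a broadly shared, progenitor-like fibroblast state were lower in members, most of all against the cells left out by the rule. Of 17 such genes tested none was called higher and 5 lower, with a median log2 ratio of -0.92. Cd55, which encodes complement decay accelerating factor, had 31.5 CPM in members against 134 CPM, and 168 CPM in the cells left out. Cd34 had 138 against 286 CPM and Sema3c 128 against 343 CPM. Fbn1, the microfibril protein fibrillin 1, had 514 CPM in members against 1048 CPM, and 1583 CPM in the cells left out. Efemp1, another elastic fibre associated gene, had 15.98 against 96.2 CPM, and 156 CPM in the cells left out. The cells left out are part of the reference, so the exclusions of the rule enter these differences.

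Hedgehog genes also stood lower than in the other Pdgfra-positive cells, and retinoid genes were split. Of 11 Hedgehog genes tested none was called higher and 4 lower (median -0.56), among them the co-receptors Cdon with 26.1 against 88.1 CPM and Gas1 with 81.3 against 215 CPM, and the decoy receptor Hhip with 14.0 against 29.7 CPM. Of 17 retinoid genes 2 were called higher, Crabp2 and the retinoic acid hydroxylase Cyp26a1, the second with 2.25 against 0.966 CPM in 7 members and a ratio of 1.74 without the highest cell on each side. Another 3 were called lower, among them the retinaldehyde dehydrogenase Aldh1a3 with 8.90 against 46.2 CPM. Of 41 axon guidance and neurotrophin genes 2 were called higher, Slit2 and Gfra1, and 7 lower, among them Sema3e with 11.8 against 42.6 CPM. Of 21 Hox genes none was called higher and 4 lower (median -0.38).

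Wnt pathway genes other than those of the rule were mostly within the call limits. Of 15 Wnt ligands 1 was called higher, Wnt16, and none lower (median -0.15). Of 17 receptors none was higher and 1 lower, and of 14 secreted antagonists none was higher and 1 lower (median -0.04). The antagonist Sfrp2, from the family of Sfrp4, had 82.7 CPM in members against 91.3 CPM, and the co-receptor Lrp6 95.9 against 94.4 CPM. Of 6 genes known as Wnt targets none was higher and 2 lower, among them Lef1 with 0.858 against 4.198 CPM. Of 14 insulin-like growth factor genes 2 were called higher, Igfbp3 and Igfbp2 (34.3 against 15.3 CPM, or a ratio of 1.92 without the highest cell on each side), and none lower, while Igf2 had 1723 against 2034 CPM, short of a call.

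Inflammatory genes were abundant in members and close to their level in the other Pdgfra-positive cells. Cxcl1, a neutrophil chemokine, had 8519 CPM in members against 6045 CPM in the other cells, and Il1rl1, the interleukin 33 receptor, 629.8 against 540.2 CPM. Neither was called. Of 24 chemokine and receptor genes none was higher and 4 lower (median -0.29). Their summed level was 19042 CPM in members against 20752 CPM in set 1, and 20146 against 14860 CPM in set 2, so the order differed between the sets. Cells with at least 3 of the Cxcl5 genes are in the reference and not among members, so the rule enters this comparison. Of 14 complement genes 2 were higher, C2 among them, and 1 lower (median 0.19), and Serping1, the C1 inhibitor, had 395 against 332 CPM.

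Set against the 449 Abca8a Ebf2 Cd248 fibroblasts instead, members had higher levels of some chemokine and interleukin signalling genes and lower levels of Hedgehog genes. These cells had at least 3 of the Abca8a genes and none of the other 3 signatures of the rule, and a median depth of 13483 UMIs. Of 9790 genes tested, 344 (3.51%) were called higher in members and 1069 (10.9%) lower, with a median log2 ratio of -0.17. Divided by that median, the ratios gave 520 higher and 734 lower. Genes named in this comparison and the next were picked after their values were seen, unless named before.

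Of 18 chemokine genes tested 7 were called higher and 3 lower. Cxcl1 had 8519 CPM in members against 2168 CPM in the Abca8a Ebf2 Cd248 fibroblasts, Ccl2, a monocyte chemokine, 6355 against 2399 CPM, Ccl7 1712 against 581 CPM, and Ccl5 105 against 14.2 CPM. Cxcl12, the ligand of Cxcr4, had 74.6 against 174 CPM and was called lower, as were Cxcl9 and the scavenging receptor Ackr2. The higher and the lower chemokines left the list's median at -0.10. Of 17 interleukin signalling genes 5 were higher and 1 lower (median 0.62). Il1r1, the interleukin 1 receptor, had 336 against 129 CPM, Il1rl1 629.8 against 159.8 CPM, and Lif, a cytokine of the interleukin 6 family, 67.2 against 16.6 CPM. The rule itself limited Csf2, Csf3, Cxcl5, Ptgs2 and Saa3 in both groups of cells.

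All 6 of the Hedgehog genes called in this comparison, of 11 tested, were lower in members (median -1.16). Cdon had 26.1 against 139.5 CPM in the Abca8a Ebf2 Cd248 fibroblasts, Gas1 81.3 against 403 CPM, and the receptor Ptch1 12.98 against 29.0 CPM. Gli1, a Hedgehog target, had 3.43 against 10.5 CPM. Of 40 transcription factors of fibroblasts and limb tested, 2 were higher and 12 lower (median -0.40). The 2 were Twist2, with 143 against 48.0 CPM, and the tendon factor Scx, with 31.7 against 12.3 CPM, while Nfia had 133 against 441 CPM and Meox2 27.5 against 116 CPM.

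Set against the 100 Pi16 Dpp4 fibroblasts, members had higher tendon, proteoglycan and immediate early genes and lower progenitor genes. The median depth there was 14192 UMIs. These fibroblasts were chosen for having Pi16 and Dpp4 together, as no member had. The rule thus enters these differences, those in progenitor genes among them. Of 8106 genes tested, 691 (8.52%) were called higher in members and 255 (3.15%) lower, with a median log2 ratio of 0.01. Of 7 tenocyte markers 6 were higher and none lower (median 3.55). Tnmd, the tendon membrane protein tenomodulin, had 306 CPM in members (328 in set 1, 286 in set 2) against 11.9 CPM in the Pi16 Dpp4 fibroblasts (11.6 in set 1, 12.3 in set 2). Fmod, the proteoglycan fibromodulin, had 407 against 34.7 CPM and Scx 31.7 against 1.14 CPM, a level of 2 UMIs in the Pi16 Dpp4 fibroblasts. Thbs4, Mkx and Kera were also called higher, and Comp was not.

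Of 12 small leucine-rich proteoglycan genes 6 were higher, among them Bgn with 1597 against 783 CPM and Ogn with 473 against 186 CPM, and 1 lower, Prelp with 78.3 against 184 CPM. Of 7 secreted Wnt antagonists 4 were higher and none lower (median 1.07): Wif1 had 48.7 against 6.26 CPM, Dkk3 71.2 against 14.2 CPM, Dkk2 81.4 against 20.5 CPM and Sfrp1 25.1 against 11.9 CPM. Of 16 progenitor-like fibroblast genes 1 was higher and 8 lower (median -0.99), among them Ly6a with 219 against 764 CPM and Clec3b with 461 against 1164 CPM. Hedgehog genes were not lower here, unlike in the comparisons above. Of 9 tested 4 were higher and none lower (median 0.67), with a summed level of 322 against 223 CPM. Col12a1 was called higher, with 343 CPM (95.5 in set 1, 573 in set 2) against 58.0 CPM (29.0 in set 1, 86.1 in set 2).

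Of 16 immediate early and heat shock genes 14 were called higher and none lower against the Pi16 Dpp4 fibroblasts (median 1.29). Fos had 337 against 51.2 CPM, Egr1 475 against 108 CPM and Hspa1a, a stress-induced chaperone, 1054 against 75.1 CPM. Under the thinned rule the ratios were 0.706 for Fos, 1.11 for Egr1 and 0.335 for Hspa1a, none of them past 2. That rule chose the cells of both groups anew. Genes of this list respond to enzymatic dissociation, and its part in the other differences from these fibroblasts was not tested. Against the other Pdgfra-positive cells none of 17 such genes was called in either direction (median 0.20). Against the Abca8a Ebf2 Cd248 fibroblasts 1 of 17 was higher and 2 lower (median -0.44), with a sum of 9194 against 14447 CPM.

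Within the group, members fell along a range of tendon gene content, and the 5 rule genes followed it unevenly. The 7 tenocyte markers are Tnmd, Scx, Kera, Mkx, Thbs4, Fmod and Comp, of which 215 members had none, 185 had 1 or 2 and 108 had 3 or more. The median depth was 10380.0, 12771 and 24733.5 UMIs in these classes, so the number of markers detected moves with depth. The classes were drawn after values were seen, and whether they hold distinct cell types was not tested. Sfrp4 had 264, 485 and 342 CPM in the classes with 0, 1 or 2, and 3 or more markers. Pcdh7 had 1683, 1257 and 560.2 CPM, Dclk1 643, 505 and 281 CPM, and Frmpd4 169.8, 155 and 31.8 CPM. Ccl11 had 152, 77.2 and 3.74 CPM. Pcdh7, Dclk1, Frmpd4 and Ccl11 were thus lowest where tendon markers were most numerous, and Sfrp4 was highest in the middle class. A cell of greater depth can pass the rule at lower CPM of these 5 genes, so the rule and depth enter these differences.

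Other named genes, of which Col12a1 and Cxcl1 were not called, were spread along the same range in opposite ways. Wnt16 had 0, 13.4 and 59.0 CPM in the classes with 0, 1 or 2, and 3 or more markers, Grem1 1.81, 15.5 and 59.3 CPM, and Col8a1 10.5, 60.5 and 497 CPM. Crabp2 had 11.9, 73.0 and 149.7 CPM and Tnn 2.17, 52.2 and 260.1 CPM. Col12a1 had 72.4, 173 and 755 CPM, and this order held in set 1 (41.8, 58.3 and 172 CPM) and in set 2 (96.7, 279 and 1375 CPM). These genes were lowest or absent in members with no tendon marker. Twist2 had 165, 145 and 122 CPM, C2 47.8, 48.6 and 23.4 CPM, and Cxcl1 11633, 9307 and 5012 CPM. These 3 were lowest in the class with 3 or more markers.

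**Figure D4:**
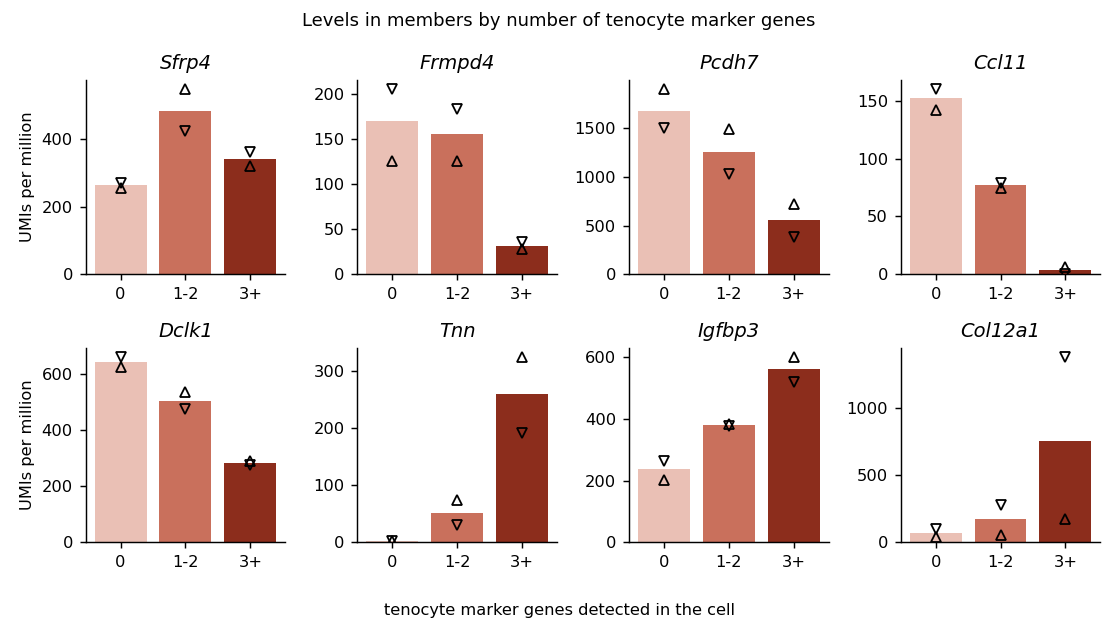
Pooled CPM of rule genes and named genes in members with 0, 1 or 2, and 3 or more of 7 tenocyte markers detected, as bars, with open triangles for the barcode sets (up 1, down 2). Ccl11 is lowest at 3.74 CPM and Col12a1 is highest at 755 CPM in the last class. Median depth was 10380, 12771 and 24733.5 UMIs in the 3 classes, and members were chosen by the rule genes.

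The level of tendon markers in members relative to other cells differed with the cells compared. At least 3 of the 7 were found in 21.3% of members, against 11.1% of the Abca8a Ebf2 Cd248 fibroblasts, 3 of the 100 Pi16 Dpp4 fibroblasts and 18.8% of all other Pdgfra-positive cells. Against the cells left out despite 3 or more of the 5 genes, all 7 were called higher (median log2 ratio 2.00). Over all 12094 genes tested against those cells the median was -0.09. Those cells were left out for their Abca8a, Pi16 and Dpp4 or Cxcl5 genes, so the rule enters this difference. Against all other Pdgfra-positive cells Fmod had 407 against 389.6 CPM. There none of the 7 was called higher and Comp, a cartilage and tendon matrix protein, was called lower with 72.0 against 278 CPM. Their summed level was 1195 CPM in members (1211 in set 1, 1179 in set 2) against 1263 CPM. When the rule was applied after thinning every cell to 2000 UMIs it chose 155 cells, 84 of them among the 508, in which the summed tenocyte markers stood at 378 CPM and 9.03% had at least 3 of them. In the other Pdgfra-positive cells under that rule the values were 906 CPM and 15.96%.

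Members with and without Ccl11 differed in tendon markers and in the levels of single matrix, cytokine and guidance genes. This split, drawn after values were seen, set 79 members with a Ccl11 UMI beside 429 without one, at median depths of 11443 and 12595 UMIs. The summed tenocyte markers were 57.3 CPM in members with Ccl11 (46.8 in set 1, 63.8 in set 2) and 1395 CPM in members without it (1369 in set 1, 1421 in set 2). Tnmd had 2.86 CPM in members with Ccl11 and 359 CPM in those without, Fmod 24.3 and 475 CPM, and Thbs4 12.9 and 353 CPM. No UMI of Kera was found in members with Ccl11, against 72.3 CPM in those without. At least 3 tenocyte markers were detected in 2 of the 79 members with Ccl11 (2.53%, 0.308 to 8.85) and in 106 of the 429 without (24.7%, 20.7 to 29.1). These intervals cover counting error only, since cells are not replicates. Ccl11 is a gene of the rule, so the rule enters the differences between these 2 groups of members. In the other Pdgfra-positive cells the summed markers were 428 CPM with Ccl11 and 1387 CPM without it, so the same order held outside the group.

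Tendon-associated matrix genes followed, with Col8a1 at 10.7 CPM in members with Ccl11 and 228 CPM in those without, and Col11a1, a chain of the fibrillar collagen XI, at 35.1 and 519 CPM. Igfbp3 had 178 CPM with Ccl11 and 438 CPM without. Genes higher beside Ccl11 were Slit3, a guidance ligand, with 767 CPM in members with Ccl11 and 215 CPM without, Il6 with 742 and 189 CPM, Cxcl12 with 195 and 53.5 CPM, and Apoe with 447 and 133 CPM. Each of these 4 was higher with Ccl11 in both barcode sets. Col4a1, a basement membrane collagen chain, had 1669 CPM with Ccl11 and 398 CPM without, or 1148 and 383 CPM without the highest cell of each side. Col15a1 had 591 and 157 CPM. Dcn and Twist2 were close in both, with 4012 and 4018 CPM of Dcn and 159.6 and 140.15 CPM of Twist2. Sfrp4 itself had 144 CPM in members with Ccl11 and 410.1 CPM without. A cell without Ccl11 needs 3 of the other 4 genes, so the rule enters this difference.

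**Figure D5:**
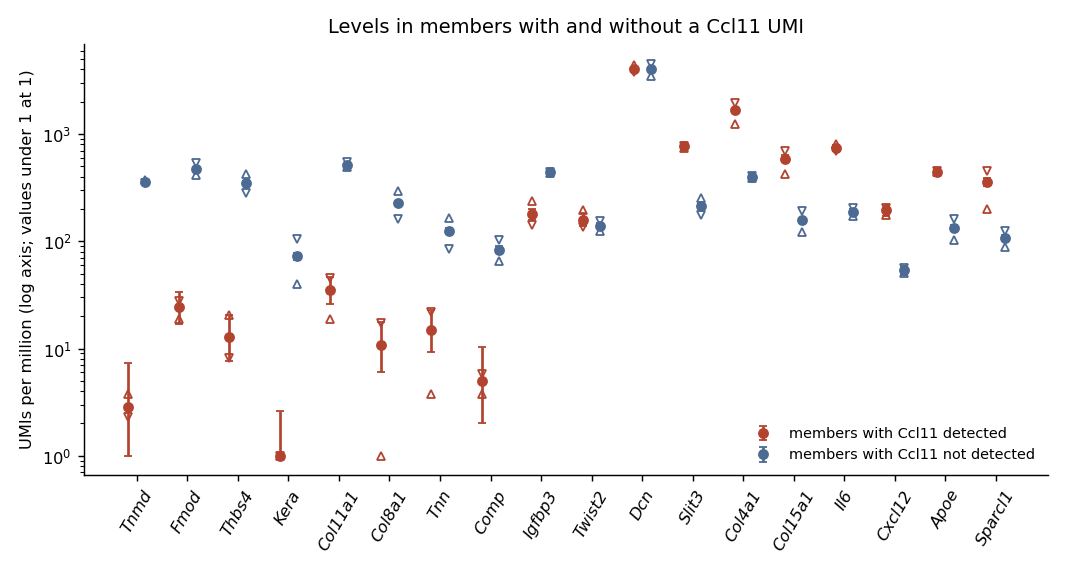
Pooled CPM (log axis) of named genes in the 79 members with a Ccl11 UMI beside the 429 without, with exact 95% counting intervals as bars, open triangles for the barcode sets (up 1, down 2) and values under 1 drawn at 1. Tnmd stands at 2.86 CPM with Ccl11 against 359 CPM without, Slit3 at 767 against 215 CPM, and Dcn is level.

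Markers of other cell types were found in part of the members, and some lay mostly in 1 cell. Dcn was found in 507 members and Col1a1 in all 508. At least 3 osteoblast markers were detected in 35 members (6.89%) against 3.91% of the other Pdgfra-positive cells, and at least 3 chondrocyte markers in 10.2% against 18.0%. By level, none of 7 osteoblast markers was called higher and 2 lower (median -0.51), with a sum of 291 against 479 CPM. All 8 chondrocyte markers were called lower (median -1.73), with Col2a1 at 581 CPM in members (47.5 in set 1, 1076 in set 2) against 3160.4 CPM, and 91.1% of the members' Col2a1 UMIs lay in 1 cell. No member had 3 macrophage markers. Fabp4 had 687 CPM in members with 96.7% of it in 1 cell, and Cdh5, the endothelial cadherin, 34.6 CPM with 96.0% in 1 cell. Bglap, which encodes osteocalcin, had 135 CPM (45.1 in set 1, 219 in set 2) with 56.1% in 1 cell. Neither Fabp4, Cdh5 nor Bglap was called. Of 7 endothelial markers, with a median log2 ratio of 1.03, 1 was called higher, Kdr, with 11.8 against 5.78 CPM and 57.3% of the members' UMIs in 1 cell. Of 5 muscle markers tested 1 was called higher, Myod1, with 4.83 against 1.63 CPM and 73.3% in 1 cell, and 1 lower. At least 2 pericyte and smooth muscle markers were found in 23.8% of members against 25.1% of the other Pdgfra-positive cells.

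Blood transcripts were present at levels below those of the other fibroblasts. At least 3 erythroid markers were found in 46.9% of members against 62.6% of the other Pdgfra-positive cells, and Hbb-bs, a beta globin gene, had 2727 against 5461 CPM. At least 3 neutrophil markers were found in 17.3% against 22.1%, and Camp, a neutrophil granule peptide, had 9.12 against 20.3 CPM. Both genes were called lower. The ratio of Camp was 0.723 without the highest cell on each side and 3.75 with at least 2 of the 5 genes asked of members, so its call rested on those choices, and Hbb-bs, at a ratio of 0.499 as reported, was 0.797 with at least 2 of the 5. The summed erythroid markers were 4556 CPM in members (4317 in set 1, 4778 in set 2) against 9348 CPM. That sum was 8237 CPM in the Abca8a Ebf2 Cd248 fibroblasts (3427 in set 1, 11676 in set 2). It was 6191 CPM in the Pi16 Dpp4 fibroblasts (11867 in set 1, 713 in set 2). Against both of these groups the order differed between the sets. Against the Pi16 Dpp4 fibroblasts 2 of 6 erythroid markers were called higher and none lower. The part of erythroid transcripts in the other differences was not tested.

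Globin, chemokine and heat shock genes were among those with the largest cell-to-cell spread within the group. With each member thinned to 2000 UMIs, 201 of 4990 genes with a mean of at least 0.05 UMI had a variance over 2 times the mean in both sets, and the median ratio was 1.10. The ratio was 213 for Hbb-bs, 68.7 for Gm42418, 47.4 for Fabp4 (in 3.15% of thinned members), 42.0 for Ccl2, 26.1 for Cxcl1, 25.9 for Cxcl2 and 14.5 for Ccl7. Ccl2 was found in 52.2% of thinned members and Cxcl1 in 71.1%, so these chemokines were neither uniform nor confined to a few cells. Hspa1a had a ratio of 38.2 and was found in 17.7%, Col1a1 a ratio of 27.5 and was found in 99.0%, and Spp1, which encodes osteopontin, a ratio of 32.9 in 4.53%.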

How the data were processed

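The deposited matrix holds UMI counts of 24203 barcodes and 32285 genes, which the authors made with Cell Ranger 7.0.0, per the labels' protocols, with mm10 named in the submitters' processing notes. The counting of intronic reads is not described in the labels. Members and gene lists were chosen with earlier results of these data known. Counts were summed over cells, 9324207 UMIs in members, and divided by the group's total to give CPM, with exact Poisson and conditional binomial intervals computed in Python 3.11.15 with numpy 2.4.6 and scipy 1.17.1; the script was tested on simulated data. Named genes were the 15 highest and 10 lowest ratios against other Pdgfra-positive cells, Col12a1, the rule genes, and in each of 32 lists the 2 highest and 1 lowest called and the most abundant gene. Neighbours used scikit-learn 1.9.0. Doublets were not removed: Scrublet (scanpy 1.11.5), run per barcode set, marked 4 of 15174 cells and so did not work here. The sets share 40 barcode sequences, 4 of them with a member. Of the gene IDs, 32158 were found in GENCODE M21. Sequences are from RefSeq GRCm38.p6.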

Additional observations from a re-analysis of the deposited data

How the results depend on the processing

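Each choice was changed alone. The share of members among Pdgfra-positive Ptprc-negative cells was 23.2% with at least 2 of the 5 genes, 2.75% with at least 4, 8.04% with the rule read after thinning to 2000 UMIs (155 cells), and 15.1% (146 cells) with cells bearing 2 markers of a blood, endothelial, Schwann or muscle list left out. Genes called against other Pdgfra-positive cells numbered 240 higher and 1504 lower with at least 4 of the 5 genes, 70 higher after thinning, 52 higher and 488 lower without those cells, 312 higher with at least 20 UMIs, 487 and 2219 at a ratio of 1.5, 24 and 402 at a ratio of 3, 1567 lower as a mean over cells, 239 higher after division by the median ratio, and 71 higher without each side's highest cell. Against the Abca8a Ebf2 Cd248 fibroblasts they numbered 704 higher with at least 2 of the 5 genes, 1868 lower with at least 4, 725 higher after thinning, 660 lower in barcode set 2 alone, 73 and 118 without those cells, 566 and 2104 with 20 UMIs, 991 and 2521 at 1.5, 72 and 284 at 3, and 520 higher after division by the median. Against the Pi16 Dpp4 fibroblasts they numbered 405 higher with at least 4 genes, 251 and 158 after thinning, 169 and 69 without those cells, 1157 and 444 with 20 UMIs, 1121 and 680 at 1.5, and 332 and 95 at 3. The share of members among members' neighbours was 29.6% with 5 neighbours, 26.3% with 10 components and 26.4% within each barcode set.

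Ratios against other Pdgfra-positive cells passed to the other side of 1 as follows. With at least 2 of the 5 genes: Msmp 2.17 and Camp 3.75. With at least 4: Gm45184 0.330, Mstn 0.533, Luzp2 0.893, Fam181b 0.671, Apln 0.744 and Far2 0.910. After thinning: Gpha2 0.119, Gm45184 0.450, Serpina3g 0.242, Mstn 0.879, Mipep 0.597, Gm10635 0.450, Ostn 0.127, Fam181b 0.394, Apln 0.687, Grem1 0.732, Far2 0.640, Grm7 0.211, Col8a1 0.486, Ltbp2 0.681, Tnn 0.00993, Crabp2 0.784 and Slit2 0.383, and against the Pi16 Dpp4 fibroblasts Hspa1a 0.335 and Fos 0.706. Without cells bearing 2 other markers: Gm10635 0.693, Ostn 0.604, Grem1 0.453, Vwc2 0.347, Mup5 2.95, Ncmap 1.10, Hao1 2.53, Cxcl13 2.21, Ltbp2 0.502, Tnn 0.177, Adamts3 0.849, Igfbp2 0.713 and Slit2 0.598. With both sides within the 10th to 90th percentile of the members' UMIs, Mstn was 0.227, and without the highest cells Gm45184 was 0.884. The cause was not tested, except that thinning and the 2-marker rule leave 155 and 146 members by construction. The other settings kept the counts within 1.5 times of those reported. Similar counts did not mean the same genes. Of the 146 genes called higher against other Pdgfra-positive cells, 67 were kept with at least 2 of the 5 and 68 with at least 4. The shared number was 83 in set 1 alone, 64 in set 2 alone, 14 after thinning and 9 without cells bearing 2 other markers. Of the 961 called lower, 287 were kept after thinning and 119 without those cells. Settings on the highest cells, 3 other-lineage markers and Scrublet scores were chosen after seeing the data. No paired analysis was possible because no test was made and no label ties cells to a numbered replicate. Genes with few UMIs are limited by depth, since 3 UMIs over all members are 0.322 CPM.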
